A study of Mus musculus with 32 samples.

Results

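The mitochondrial genome (chrM) held 278 of the 325483 distinct single-nucleotide differences (SNPs) at which brain transcripts of CAST/EiJ and C57BL/6J mice were told apart by sequencing. The members are all positions that the transcript tables assign to chrM, each transcript position counted once. The table of the embryonic day 15 brain listed 277 of them, that of the preoptic area 275 and that of the medial prefrontal cortex 273, and 272 stood in all 3 tables. They lie in 8 listed transcripts. The tables of reads aligned to the genome listed 247 chrM SNPs, of which 48 were in no transcript table, so that 326 mitochondrial positions were listed in all.

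Mitochondrial DNA is a small circular genome present in many copies per cell, and in mammals it passes to the offspring through the egg. It encodes the ribosomal and transfer RNAs of the organelle and a set of core subunits of respiratory complexes I, III and IV and of ATP synthase (complex V). The other subunits, and the proteins that copy and transcribe this DNA, are made from nuclear genes. Fragments of mitochondrial DNA have also been copied into nuclear chromosomes during evolution, and short reads can match such copies.

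The animals were F1 hybrids of the 2 inbred strains. In the cross named F1i the mother was CAST/EiJ and the father C57BL/6J, and in F1r the mother was C57BL/6J and the father CAST/EiJ. Every F1 animal therefore carried autosomes of both strains, and the crosses differed in which strain gave the egg and, with it, the X chromosome of males. Whole brain came from embryos of day 15 (E15), whose sex the labels do not give, as 1 pool per cross of RNA from 4 to 5 individuals. The preoptic area (POA) and medial prefrontal cortex (PFC) came from mice 5 weeks of age, as 1 pool per region, cross and sex of RNA from 8 to 10 individuals. This makes 10 F1 pools, 2 embryonic and 8 adult. The embryonic pools are whole brain and the adult pools are 2 regions, so age and tissue cannot be told apart. Embryonic whole brain of each pure strain, CAST/EiJ and C57BL/6J, gave 1 value per strain. The technical replicates of a pool had been summed by the authors, so a pool is 1 value, and p-values measure the spread between pools of animals.

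An informative read is one that covers a listed SNP and shows the CAST or the C57BL/6J base, and a read that covers several SNPs counts at each. Each pool had 3530103 to 11406291 nuclear informative reads, and the mother's base made up 47.2% to 52.2% of those on autosomes. On the X chromosome the mother's base made up 97.4% in the E15 F1i pool and 44.5% in the E15 F1r pool. In adult pools it made up 96.2% to 98.9% in males and 31.6% to 74.2% in females. Cross and the sex of the embryos therefore cannot be told apart in E15. Marker levels are summed counts per 1000000 informative reads (CPM) after TMM scaling, the scaling of library totals in edgeR. The cortical excitatory list (2 of 6 markers listed) summed to 449 to 573 in PFC and 4.63 to 7.68 in POA, and the preoptic and hypothalamic list (4 of 12 listed) to 572 to 655 in POA and 201 to 225 in PFC. The list of progenitors and immature neurons (4 of 6 listed) summed to 695 to 746 in E15 and at most 33.5 in the adult pools. None of the 3 choroid plexus markers was listed, and no listed marker was at 0 in any pool.

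Of the 278 SNPs, 275 could be placed on the mitochondrial sequence of mm9. They comprised 253 positions in protein-coding genes and 22 in the ribosomal RNA genes, with 252 transitions and 23 transversions. In the coding genes 220 lay at codon position 3, 24 at position 1 and 9 at position 2, and 232 left the amino acid unchanged under the vertebrate mitochondrial code while 21 changed it. mt-Cytb (39 SNPs), the mitochondrial subunit of complex III, held the most, followed by mt-Co1 and mt-Nd2 (36 each), mt-Nd1 (35), mt-Nd5 (34) and mt-Nd4 (31). No SNP was placed in mt-Nd3 or mt-Co3. At 223 positions another listed SNP lay within 35 bases, so that reads of 36 cycles could cover both.

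4 windows of the C57BL/6J reference (mm9, chrM, + strand) hold the positions that stand out below, with the SNPs in capitals. The first holds the 3 SNPs with the lowest maternal shares, and lies at the end of mt-Nd1, a membrane subunit of complex I. In this window the CAST differences are T3629C, C3630T, C3635T and A3689G, where the C57BL/6J base stands before the chrM position and the CAST base after it. The second holds A8010T and C8019T in mt-Atp6, the channel subunit of ATP synthase. The third holds C4123T in mt-Nd2, another membrane subunit of complex I. The fourth surrounds G6620A in mt-Co1, the catalytic subunit of cytochrome c oxidase, which had the most reads of all mitochondrial SNPs (1067275 over the 10 pools).
mt-Nd1, chrM:3615-3703: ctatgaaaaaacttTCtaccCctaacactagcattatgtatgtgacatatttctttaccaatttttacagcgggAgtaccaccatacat
mt-Atp6, chrM:7996-8042: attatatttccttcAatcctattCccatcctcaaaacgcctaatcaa
mt-Nd2, chrM:4100-4146: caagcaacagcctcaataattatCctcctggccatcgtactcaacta
mt-Co1, chrM:6595-6645: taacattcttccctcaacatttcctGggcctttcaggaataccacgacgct

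The first question was whether the mitochondrial RNA of the hybrids carried the mother's bases. It did at every position of the transcript tables: the mother's base had more than 50% of the reads in all 2746 combinations of SNP and pool. Over all listed chrM SNPs, the mother's base made up 98.76% of reads in the E15 F1i pool and 99.88% in the E15 F1r pool. In POA the F1i pools had 99.60% (male) and 99.62% (female) and the F1r pools 99.84% and 99.83%. In PFC the F1i pools had 98.68% and 99.29% and the F1r pools 99.92% and 99.92%. The 5 F1r pools thus lay above all 5 F1i pools, and the PFC and E15 pools of F1i were the lowest. The exact 95% binomial interval of the lowest value ran from 98.67% to 98.70%, and it covers counting error only, since reads without molecular identifiers are not independent molecules.

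Per transcript, each of the 8 mitochondrial entries was called maternal in POA and in PFC by the quasi-likelihood test of edgeR, adjusted over all genes after Benjamini and Hochberg. Across the nuclear and mitochondrial genes tested, 0.244% were called maternal in POA and 0.167% in PFC, with 0.471% and 0.351% called in either direction. The log2 ratio of maternal to paternal reads in POA ran from 8.03 (SE 0.02, adjusted p = 6.52e-08) for mt-Nd4, which holds the mt-Nd4l and mt-Nd4 subunits of complex I, to 9.34 (SE 0.28, adjusted p = 0.000375) for AK140265, the small ribosomal RNA mt-Rnr1. In PFC the same 2 entries were the ends of the range, at 8.08 (SE 0.22) and 9.34 (SE 0.25). Each edgeR SE, here and below, is the absolute log2 value over the square root of the test's F. It is derived from the test and is not a fitted standard error. In the fit over all 8 adult pools, where 0.251% of genes were called maternal, the 8 values ran from 8.06 to 9.34. In E15, with 1 pool per cross, Fisher's exact test over reads gave p-values too small to be represented for 8 of 8 entries, and it compares those 2 pools and not the crosses.

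The share of reads with the father's base differed between the crosses. Over the adult pools the maternal share was 99.30% ± 0.44 in F1i and 99.88% ± 0.05 in F1r (SD, n = 4 each), a difference of -0.58 percentage points without overlap. The exact two-sided permutation test over pools gave p = 0.0286, the smallest that 4 against 4 pools can give, and 0.1 after adjustment over the 7 pool-level comparisons made. The difference was -0.37 points without the PFC F1i male pool, and the exact p was 0.0286 without any 1 F1i pool and 0.0857 without any 1 F1r pool. The regions overlapped (POA 99.72% ± 0.13, PFC 99.45% ± 0.59, difference 0.27 points, exact p = 0.486, adjusted p = 0.8), as did the sexes (male 99.51% ± 0.57, female 99.67% ± 0.28, difference -0.16 points, exact p = 0.714, adjusted p = 0.8), and the sign of the sex difference turned without the PFC F1i male pool (0.12 points).

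The same order held at single positions. The median SNP had 0.876% paternal-base reads in E15 F1i and 0.0835% in E15 F1r, and 275 of 277 SNPs were higher in F1i. In POA the medians were 0.226% and 0.234% in the male and female F1i pools against 0.0854% and 0.0966% in F1r, with 212 and 211 of 275 SNPs higher in F1i. In PFC they were 0.786% and 0.479% against 0.0624% and 0.0498%, with 265 and 270 of 273 SNPs higher in F1i. The medians of the crosses lay closest in POA, and F1i was higher at most positions in each of the 5 pairs of pools. Of the 272 mitochondrial SNPs with at least 20 reads in all 10 pools, 143 (52.6%) had every F1i pool below every F1r pool in maternal share, against 14.5% of all 46981 SNPs of that depth.

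**Figure D1:**
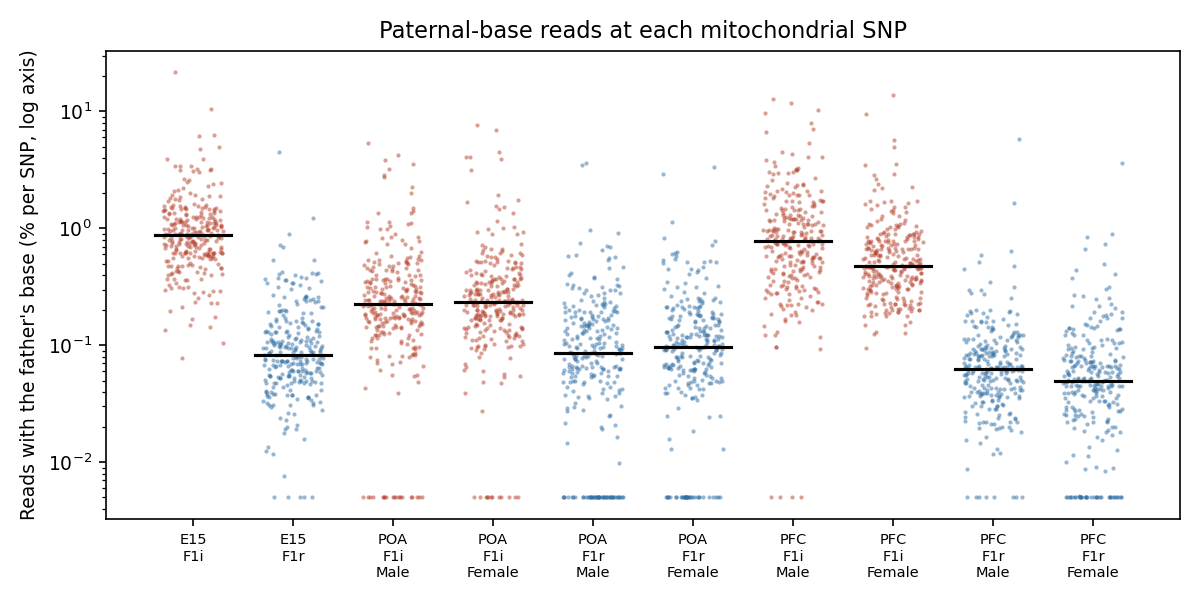
Percent of reads with the father's base at each mitochondrial SNP (points, log axis) in the 10 F1 pools, F1i in red and F1r in blue, with the median as a black line. Values under the lowest tick, zeros included, are drawn along the bottom edge. The F1i medians lie between 0.226% and 0.876% and the F1r medians between 0.0498% and 0.0966%.

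At the listed SNPs, embryonic RNA of the pure strains gave the share of the other strain's base read where no such genome was present. These strain counts are given with the SNP calls. If the calls rest on them, positions rich in the other base would not be listed. The share may thus be held low and is not a neutral baseline. In CAST/EiJ RNA 0.808% of the reads over 277 SNPs showed the C57BL/6J base, with a median per SNP of 0.567%. In C57BL/6J RNA 0.107% showed the CAST base, with a median of 0.0800%. The paternal-base share of the E15 hybrids was 1.24% with the CAST mother and 0.120% with the C57BL/6J mother, so both strains and both crosses showed the same order. Across SNPs, the paternal share in a pool followed the share of the other base in RNA of the mother's strain, with a Spearman rho of 0.37 (POA F1r male) to 0.72 (E15 F1i) over 272 to 277 SNPs. These are descriptions, since neighbouring SNPs share reads and each strain is 1 library. Of the 10 pools 5 lay above the level in embryos of the mother's strain and 5 below it. The adult pools above it were PFC F1i male (1.32%) and both POA F1r pools (0.162% and 0.166%). The pools below it were both POA F1i pools (0.398% and 0.378%), PFC F1i female (0.711%) and both PFC F1r pools (0.0817% and 0.0830%). Each strain is 1 embryonic library, so no such difference has a replicate check.

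Across all pools, the maternal share per SNP had a median of 99.67%, and ranged from 93.34% to 99.93%. Of the 2746 values 300 were under 99%, 20 under 95% and 6 under 90%, and those 6 came from 3 SNPs. The lowest was C3630T of mt-Nd1. Its maternal share was 78.3% in E15 F1i (12435 reads), 87.1% and 86.1% in the male and female PFC F1i pools, and 94.6% and 93.0% in the POA F1i pools. In the 5 F1r pools it was at least 99.8%, so its low values were all in the cross with the CAST mother. In the pure CAST/EiJ embryos 84.5% of reads at this position carried the CAST base.

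The neighbouring T3629C had 89.5% in E15 F1i and 89.8% and 90.4% in the PFC F1i pools, 97.2% and 95.5% in the POA F1i pools, at least 99.8% in all F1r pools, and 87.9% of its own base in CAST/EiJ RNA. A3689G, at the end of the same window, behaved differently: its maternal share was 93.7% to 97.6% in F1i and 94.2% to 96.6% in F1r. There the pure strains showed 89.7% (CAST/EiJ) and 91.9% (C57BL/6J) of their own base, so that it was low with either mother. G14642A of mt-Cytb, in none of these windows, had 93.0% to 95.9% in the 5 F1i pools and at least 99.9% in F1r. C4123T of mt-Nd2 was low in 1 pool, PFC F1i male at 90.3%, against 96.4% to 99.2% in the other F1i pools. C8019T of mt-Atp6 likewise had 88.1% in PFC F1i male and 96.8% to 98.3% in the other F1i pools. All 6 changes leave the amino acid unchanged. Without T3629C and C3630T the difference between the crosses in the adult pools stayed without overlap.

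The positions with the most reads after G6620A were 5930 and 6578 in mt-Co1, 7513 in mt-Co2, a core subunit of the same oxidase, and 14708 in mt-Cytb. Their maternal shares over all pools were 98.7%, 99.7%, 98.5% and 99.9%, and that of 6620 was 99.7%. All 5 lay above the 5 lowest positions, which had at most 96.9%. Depth at a SNP in a pool ranged from 2 to 192997 reads.

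The SNPs were then grouped by what they share beyond their genome, as a description. In E15 F1i, the pool with the highest median, the median paternal share was 0.891% at coding and 0.665% at ribosomal RNA positions, and 0.857% at transitions and 1.17% at transversions. Pooled over reads, PFC F1i male had 1.33% at coding and 0.667% at ribosomal RNA positions. Stretches of nuclear DNA matching the mitochondrial genome were searched with blastn. A SNP had a copy where a match of any length covered most of the 35 bases on either side of it. The list of long copies, used further below, kept matches of at least 500 bases. The median in E15 F1i was 0.884% for the 125 SNPs whose surroundings had a copy of at least 95% identity, 0.866% for the 141 with a less similar copy and 0.83% for the 9 with none. In PFC F1i male the order was another, at 0.801%, 0.739% and 1.52%. In E15 F1i the median was 0.894% where the closest copy carries the C57BL/6J base and 0.837% where it carries the CAST base. Pooled over reads that order turned, to 1.13% and 1.51% in E15 F1i, and in PFC F1i male the pooled values were 1.13% and 1.67%. In PFC F1r male the medians of this pair were 0.0620% and 0.0631%. The order of the nuclear copy classes thus depended on the pool and on whether SNPs or reads were weighted equally. In every pool the median was higher at transversions than at transitions, and the pooled share higher at coding than at ribosomal RNA positions. With the other weighting each of these orders turned in some pools.

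The longest copy, chr1:24618374-24623027 of mm9, matches chrM from 6390 to 11042 at 99.94% identity and takes in 58 of the SNPs. A second, chr2:22442808-22446054 (97.4% identity, chrM 4441 to 7699), takes in 70, and the third, chr4:79648234-79651104 (93.0%, chrM 12488 to 15356), takes in 83. The tables also list Atpase6, the entry of mt-Atp8 and mt-Atp6, under 2 entries, 1 on chrM and 1 on chromosome 1. In the E15, POA and PFC female pools the 2 listings had the same counts at each of the 14 or 15 positions in both. In the 2 PFC male pools they differed at all 14, with 1.10 (F1i) and 1.12 (F1r) times as many reads under chromosome 1. The maternal share of the chromosome 1 listing was 98.3% to 99.9%, within 0.2 points of the chrM listing in every pool. Its reads were left out of nuclear totals here.

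The amount of mitochondrial RNA differed most between the adult regions. Of the informative reads, 22.3% (F1i male), 16.9% (F1i female), 23.5% (F1r male) and 19.8% (F1r female) were mitochondrial in POA. In PFC the same pools had 38.6%, 41.3%, 46.7% and 42.3%, and the E15 pools had 30.3% (F1i) and 32.8% (F1r). Every PFC pool was above both E15 pools, and these above every POA pool. Over the 273 SNPs listed in both adult tables the share was 21.1% ± 2.98 in POA and 42.6% ± 3.39 in PFC (SD, n = 4 each), a difference of -21.5 points with an exact permutation p of 0.0286, the smallest possible, and an adjusted p of 0.1. In reads per 100 autosomal reads the difference was -48.5. In bulk tissue, fewer cells rich in mitochondria and less mitochondrial RNA per cell cannot be told apart. Several marker lists differed between the regions. Oligodendrocyte markers (4 of 5 listed) had 5177 to 5627 CPM in POA and 1045 to 3232 in PFC. Astrocyte markers (4 of 4 listed) had 692 to 768 in POA and 525 to 559 in PFC. Microglial markers (3 of 4 listed) were higher in PFC, at 181 to 201 against 102 to 121. The cortical excitatory list was higher in PFC and the preoptic and hypothalamic list in POA, as given above. The part of these lists in the result was not tested.

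**Figure D2:**
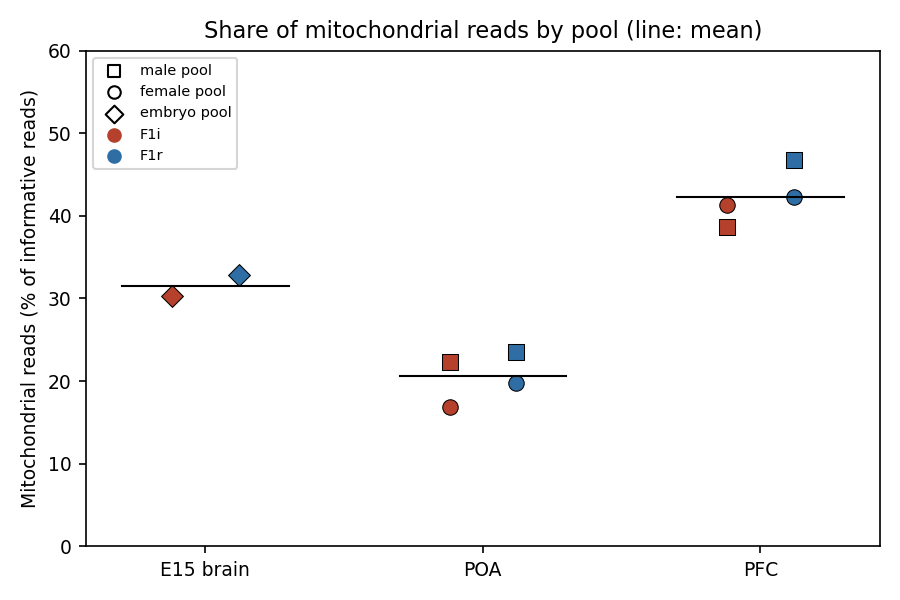
Mitochondrial reads as a percent of informative reads, 1 point per pool (squares male, circles female, diamonds embryonic, F1i red, F1r blue), with the mean of each region as a line. The POA pools lie between 16.9% and 23.5%, the E15 pools at 30.3% and 32.8%, and the PFC pools between 38.6% and 46.7%.

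The other pool-level comparisons of this share did not pass. Their tests permuted pools freely, so the difference between regions is part of the spread. F1i had 30.2% ± 12 and F1r 33.5% ± 13.4 over the adult pools (difference -3.33 points, exact permutation p = 0.571, adjusted p = 0.8). Within region and sex F1i was lower in all 4 adult pairs and in E15, at 0.95 and 0.853 times F1r in POA males and females, 0.827 and 0.977 in PFC males and females and 0.925 in E15. Flipping the sign within the 4 adult pairs gave an exact p of 0.125, the smallest that 4 pairs allow. The mitochondrial reads of F1i nearly all carried CAST bases. At autosomal SNPs with no other SNP within 35 bases, the log2 ratio of CAST to C57BL/6J reads was -0.15 to -0.01 over the pools. With 3 or more such neighbours it was -0.38 to -0.23. The part of alignment in the cross ratios was not tested. Males had 33.3% ± 11.8 and females 30.5% ± 13.6 (difference 2.77 points, exact permutation p = 0.629, adjusted p = 0.8). In reads per 100 autosomal reads the differences were -8.90 between the crosses and 5.63 between the sexes. The embryonic pools had 34.1% ± 2.12 (n = 2) and the adult pools 32.4% ± 11.9 (n = 8) over the SNPs of all 3 tables, with an exact permutation p of 0.8 where 0.0222 is the smallest possible. That difference of 1.67 points turned to -0.25 with autosomal reads as the denominator.

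Levels of single genes are given as reads per SNP per 1000000 nuclear informative reads, a depth per position. It depends on which SNPs of a gene are counted, and mt-Atp8 had at most 2, mt-Nd4l 3 and mt-Rnr1 4. The order of the genes is therefore a description. All 13 genes with SNPs in these tables were higher in every PFC pool than in every POA pool, where 18.6% of all 11171 genes with a mean of at least 20 reads showed such a separation. mt-Co1 had the highest level in 8 of the 10 pools, the exceptions being mt-Co2 in E15 F1i and mt-Atp6 in PFC F1r female. mt-Rnr2, the large ribosomal RNA, had the lowest in 7 of 10.

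Among complex IV subunits, mt-Co1 had 2375, 1758, 2427 and 2079 in POA (F1i male, F1i female, F1r male, F1r female) and 4357, 4826, 6411 and 4998 in PFC. mt-Co2 had 2028, 1479, 2043 and 1675 in POA and 3627, 3416, 4578 and 4314 in PFC. PFC means were thus 2.38 and 2.21 times those of POA, among the smaller ratios of the set. Of ATP synthase, mt-Atp6 had 1423 ± 353 in POA and 4613 ± 959 in PFC (SD, n = 4 each, 3.24 times), and mt-Atp8, its small accessory subunit, 793 ± 193 and 3001 ± 896 (3.78 times). mt-Cytb of complex III had 1175 ± 220 and 3420 ± 271 (2.91 times).

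Complex I subunits covered the whole range of ratios. mt-Nd2 had 555, 346, 420 and 305 in POA and 1865, 2148, 1811 and 1425 in PFC, the highest ratio of the 13 genes at 4.46. In this gene the order of the crosses differed from most of the others: F1i was above F1r within each sex in both regions, an order that changed with the SNPs counted (given with the ratio to mt-Nd1). mt-Nd1 had 687 ± 182 in POA and 2672 ± 577 in PFC (3.89 times), and mt-Nd4 779 ± 178 and 2106 ± 440 (2.70 times). mt-Nd5, mt-Nd6 and mt-Nd4l had PFC means 2.28, 2.26 and 2.10 times those of POA. mt-Nd6 is encoded on the opposite strand and no use of strand in the counting is stated, so its reads and those antisense to it cannot be told apart. The ribosomal RNAs mt-Rnr1 and mt-Rnr2 had ratios of 3.17 and 3.81.

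In the order of POA means, mt-Co1, mt-Co2, mt-Atp6, mt-Cytb, mt-Atp8, mt-Nd4, mt-Nd1, mt-Nd5, mt-Nd4l, mt-Nd6, mt-Nd2, mt-Rnr1 and mt-Rnr2, each gene overlapped its neighbour over the pools except mt-Rnr1, whose lowest pool (284) lay above the highest of mt-Rnr2 (275). In PFC the order was mt-Co1, mt-Atp6, mt-Co2, mt-Cytb, mt-Atp8, mt-Nd1, mt-Nd4, mt-Nd2, mt-Nd5, mt-Rnr1, mt-Nd6, mt-Nd4l and mt-Rnr2, and each gene overlapped its neighbour.

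**Figure D3:**
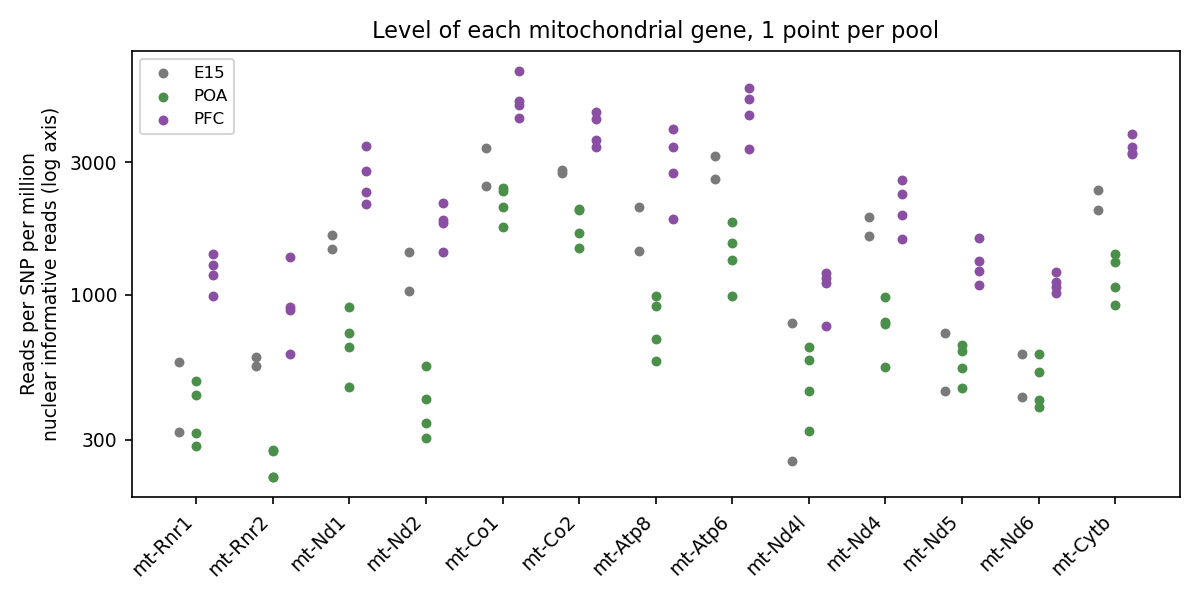
Level of each mitochondrial gene in each pool, as reads per SNP per 1000000 nuclear informative reads (log axis), with E15 in grey, POA in green and PFC in purple. For each gene the 4 PFC points lie above the 4 POA points, with PFC means between 2.10 (mt-Nd4l) and 4.46 (mt-Nd2) times those of POA.

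The per-transcript fit found the same direction after TMM scaling. By edgeR's quasi-likelihood test all 8 mitochondrial transcripts were lower in POA than in PFC, in a comparison where 54.5% of the 12390 genes tested were called, 28.4% lower and 26.1% higher. The log2 change was -2.35 (SE 0.13, adjusted p = 1.98e-08) for AK163440 (mt-Nd2) and -2.13 (SE 0.11, adjusted p = 1.48e-08) for AK018753 (mt-Rnr2 and mt-Nd1). At the other end it was -1.42 (SE 0.11) for DQ539915 (mt-Co1) and -1.31 (SE 0.10, adjusted p = 4.53e-07) for Cox2 (mt-Co2). AK140265 (mt-Rnr1), Atpase6, X57780 (mt-Nd5, mt-Nd6 and mt-Cytb) and mt-Nd4 lay between, at -1.86, -1.88, -1.60 and -1.59. The median of the 8 was -1.73 and that of all genes -0.01. Scaling moved these sizes: with the total of informative reads alone, the median of all genes was 0.64 and that of the 8 transcripts -1.08, so the distance between them stayed at -1.72. The calls of all genes were split as 3229 higher of 6748 with TMM and 7751 higher of 8956 without it.

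In the other 3 comparisons none of the 8 was called. Between the crosses 0 of 8, and 0% of all genes, were called (DESeq2 called 1 gene, none of the 8; 4 of the 8 and 611 of all genes had an unadjusted p under 0.05 in edgeR). The largest values were -0.46 (SE 0.11, edgeR adjusted p = 0.848) for AK018753 and -0.43 (SE 0.12, adjusted p = 0.960) for mt-Nd4, and AK163440 (mt-Nd2) was the 1 transcript with a positive value, 0.33 (SE 0.12, adjusted p = 0.960). Between the sexes 0 of 8 were called by edgeR or by DESeq2, with 0.0323% of genes called by edgeR. In edgeR 4 of the 8, and 662 of all 12390 genes, had an unadjusted p under 0.05. All 8 values were positive, from 0.19 (mt-Nd4) to 0.33 (AK163440), each with an adjusted p of at least 0.903.

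Between embryo and adult 0 of 8 were called by edgeR or by DESeq2, where edgeR called 41.5% of 12196 genes. In edgeR 0 of the 8, and 6125 of all genes, had an unadjusted p under 0.05. The values ran from -1.04 (SE 0.72, AK140265) to 0.09 (SE 0.61, mt-Nd4). This fit held cross alone, so the difference between the adult regions is part of its error. With region as a term, and the embryo set against the mean of both regions, 1 of 8 was called, AK140265 (mt-Rnr1) as lower in the embryo (-0.77, adjusted p = 0.00630), among 7740 genes called of 12196. The median of the 8 was then -0.01, and that of all genes 0.01. Without TMM scaling the median of the 8 was 0.13 in place of -0.23, and the calls of all genes were split as 2630 higher of 3963 in place of 2577 of 5056.

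**Figure D4:**
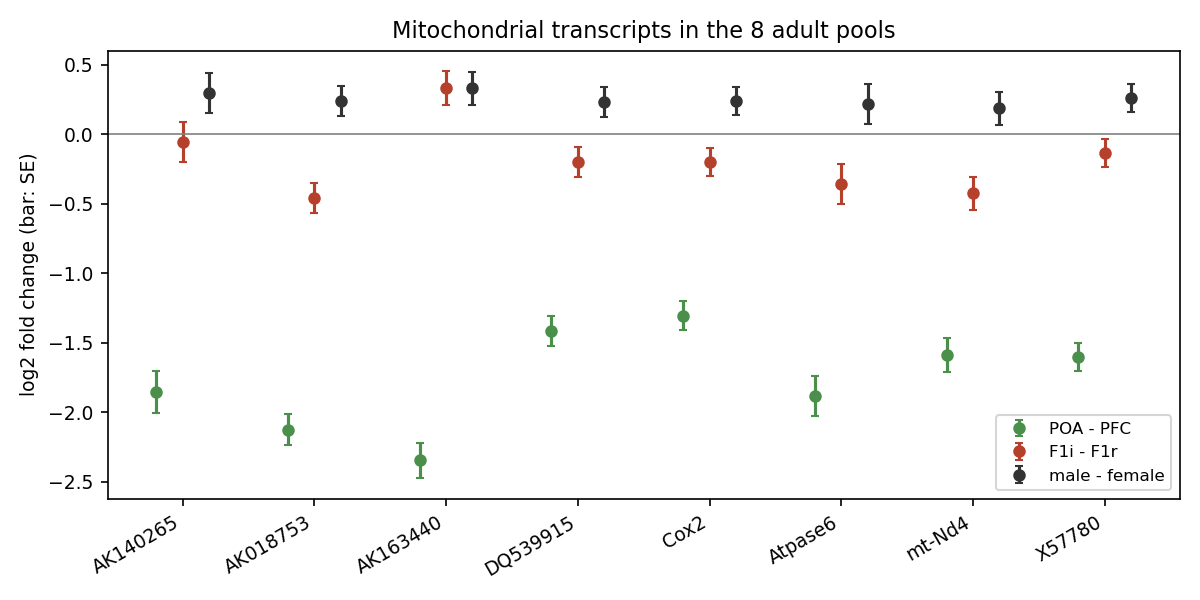
log2 fold change of each of the 8 mitochondrial transcripts over the 8 adult pools, with bars of 1 SE, for POA minus PFC (green), F1i minus F1r (red) and male minus female (black). The POA minus PFC values lie between -2.35 and -1.31, and the values of the other comparisons between -0.46 and 0.33.

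Nuclear genes that work with the mitochondrial ones moved in both directions between regions after TMM scaling. Of 80 nuclear genes of oxidative phosphorylation 53 were tested, and 19 were higher and 14 lower in POA than in PFC, where 26.1% of all genes were higher and 28.4% lower. Their median was 0.07 beside -0.01 for all genes. Atp5b, the catalytic subunit of ATP synthase, had a log2 change of 1.46 (SE 0.11, adjusted p = 2.97e-07), and Atp5o and Ndufa13, subunits of ATP synthase and complex I, rose by 0.81 and 0.83. Ndufa8 of complex I (-2.28), Cox8a of complex IV (-2.26) and Cycs, cytochrome c (-1.50), were lower in POA. Of 46 nuclear genes of mitochondrial DNA upkeep and expression 41 were tested, with 11 higher and 10 lower, shares near those of all genes, and a median of 0.10. Lrpprc and Slirp, which together stabilise mitochondrial messenger RNAs, were higher in POA (0.65 and 0.69), as was the transcription factor Nrf1 (0.71), while the exonuclease Rexo2 (-1.58), the mitochondrial transcription factor Tfb2m (-0.86) and Fastk (-0.68) were lower. Without TMM scaling, where most genes shift towards POA, 39 genes of oxidative phosphorylation were higher and 6 lower (median 0.71), and 29 and 1 of the upkeep list (median 0.75), beside the median of 0.64 for all genes.

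Neither list had a gene called between the crosses or between the sexes. In the embryo 27 of 53 oxidative phosphorylation genes were lower than in the adult pools and 0 were higher, with a median of -0.84 beside -0.04 for all genes and 20.3% of genes called lower and 21.1% higher. Without TMM scaling the counts were 6 lower and 1 higher, with a median of -0.68. Of the complex I subunits, Ndufs5 had -1.36, Ndufs7 -1.82 and Ndufb6 -1.30 (adjusted p = 0.000595, 0.000952 and 0.00101). The upkeep list had 3 higher, Mterfd2, Gabpa and Ssbp1, and 5 lower, among them Esrra, Ppargc1b and Polg, the catalytic subunit of the mitochondrial DNA polymerase, and without scaling 6 higher and 2 lower. With adult region as a term, 4 genes of oxidative phosphorylation were higher and 36 lower, and 10 and 6 of the upkeep list. In that fit 7740 of 12196 genes were called, 3908 of them higher.

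Whether the parent-of-origin ratio itself differed was tested as an interaction. Between the regions 0 of 8 transcripts were called, with 0.269% of 11171 genes called. Of the 8, 3 had an unadjusted p under 0.05, at ranks 67, 194 and 263 by p among all genes. The largest difference, POA minus PFC in the log2 ratio of maternal to paternal reads, was 0.66 (SE 0.17, adjusted p = 0.237) for AK163440. Between the sexes 1 of 8 was called, Atpase6, in a comparison where 2.83% of genes were called. The genes tested included those of the X chromosome. There the mother's base had 96.2% to 98.9% of reads in male adult pools and 31.6% to 74.2% in female adult pools. The maternal share of Atpase6 was 99.47% in male and 99.59% in female POA F1i pools and 98.15% and 99.11% in PFC F1i, against 99.85% and 99.87% in POA F1r and 99.91% and 99.93% in PFC F1r. Males were lower than females in all 4 pairs. The log2 ratio was lower in males by a difference of -0.50 (SE 0.13, adjusted p = 0.0382), a call lost with DESeq2 (adjusted p = 1.0), with autosomal and mitochondrial genes alone (0.824) and without any of 5 single pools (0.055 to 0.675). It was 0.30 lower, not 0.50, without the PFC F1i male pool, 1 of the 2 pools in which the listings of Atpase6 differ.

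The tables of reads aligned to the genome gave a second count at the same positions. There were 198 (E15), 157 (POA) and 155 (PFC) chrM SNPs in both kinds of table. Summed over these, the maternal shares were within 0.2 points of those of the transcript tables in every pool, for instance 98.87% and 98.76% in E15 F1i. Single positions differed more. In E15 F1i, C3630T had 95.6% in the genomic tables against 78.3%, and T3629C 96.6% against 89.5%. In PFC F1i male, C4123T had 81.9% against 90.3%. In the genomic tables the mother's base had 50% at 1837 in E15 F1i, with 1 read of each base. At 4912 it had 61.9% in POA F1i female. The depth differed as well: the genomic tables held 43.5% to 63.0% of the reads of the transcript tables in the F1i pools and 81.3% to 99.4% in the F1r pools. On autosomes the CAST share was 46.9% to 48.7% in the genomic tables and 47.2% to 49.3% in the transcript tables. The pools of the CAST mother, whose mitochondrial reads nearly all carried CAST bases, were thus the ones with fewer counts in the genomic tables, relative to the transcript tables.

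The 48 positions listed only there comprised 20 in mt-Nd5, 15 outside annotated genes, 9 in the transfer RNA genes mt-Tv (3), mt-Ts2 (2), mt-Tf, mt-Ti, mt-Tp and mt-Tt (1 each), and 4 in mt-Rnr1 (2), mt-Rnr2 and mt-Nd4. Their maternal share was 98.9% to 99.8% in F1i pools and 99.9% in F1r pools. Transfer RNA positions had 15.7 to 338 reads per SNP, against 1578 to 15520 at coding positions of the same tables. The genomic tables also listed SNPs inside the long chromosome 1 copy, 15 in E15, 1 in POA and 3 in PFC, with 2 to 332 reads per pool and a maternal share of 97.2% to 100%. Of the 58 mitochondrial SNPs matching that copy, 13, 0 and 2 were in the genomic tables of E15, POA and PFC.

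The make-up of the mitochondrial RNA was compared between the crosses last, as the ratio of mt-Nd2 to mt-Nd1 in reads per SNP, a pair chosen after its values were seen and given without a test. The ratio was 0.980 in E15 F1i, 0.855 and 0.742 in the male and female POA F1i pools, and 0.877 and 0.917 in PFC F1i. In F1r it was 0.630 in E15, 0.464 and 0.419 in POA and 0.528 and 0.511 in PFC. The 5 F1i pools were all above the 5 F1r pools, an order not found at SNPs without neighbours. At the 4 SNPs of each gene with no other SNP within 35 bases the ratio was 0.490 to 0.719 in F1i and 0.550 to 0.893 in F1r, and F1i was the lower in 4 of 5 pairs. With the median SNP of each gene it was 0.682 to 1.24 in F1i and 0.382 to 0.712 in F1r. The pure strains gave 1.25 (CAST/EiJ) and 0.547 (C57BL/6J), in the same order as the mothers' strains, and 1.05 and 0.664 at the SNPs with no neighbour. In the genomic tables the ranges were 0.765 to 0.996 in F1i and 0.516 to 0.691 in F1r. As a share of the mean level of the mitochondrial genes, mt-Nd2 was higher in F1i in 5 of 5 pairs, by 0.57 on the log2 scale on average (0.48 to 0.70), and by 0.83 in CAST/EiJ over C57BL/6J embryos. The SNPs of mt-Nd2 did not move alike: in reads per 1000000 nuclear informative reads, 4 of the 36 within 52 bases had mean log2 ratios of F1i to F1r of 1.51 to 1.83, the other 32 had -0.96 to 0.97 with a median of 0.21, and the median of the 4 with no neighbour was 0.01. Without those 4 high SNPs the ratio to mt-Nd1 was 0.770 to 0.894 in F1i and 0.448 to 0.650 in F1r. The genomic tables held fewer mitochondrial reads of the F1i pools, relative to the transcript tables, and the part of alignment in the mt-Nd2 values was not tested.

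**Figure D5:**
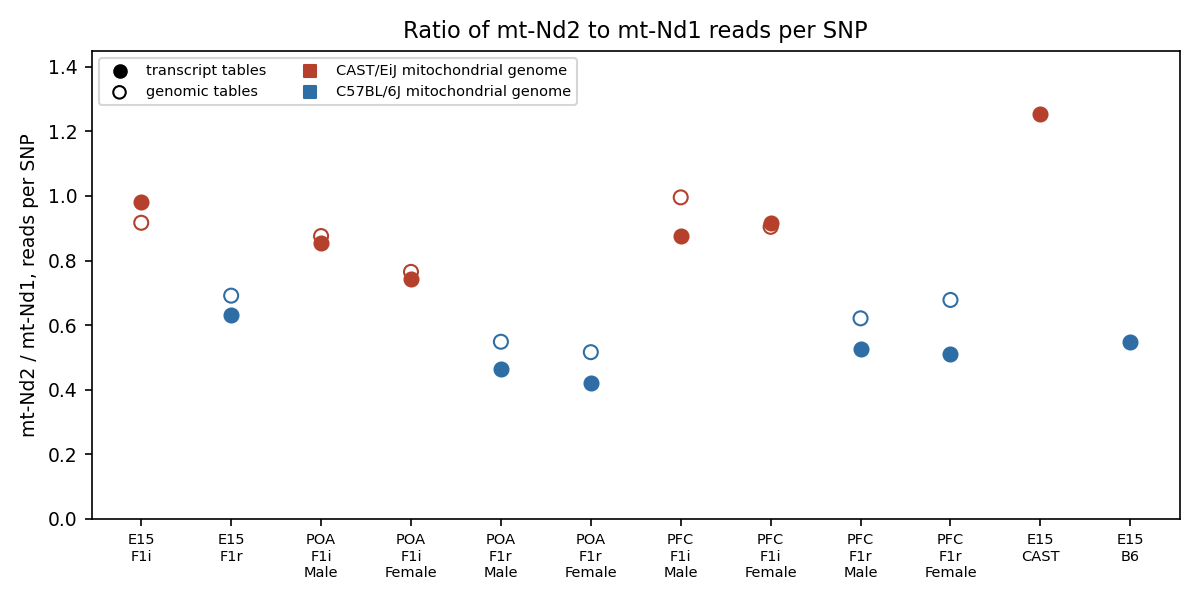
Ratio of mt-Nd2 to mt-Nd1 reads per SNP in the 10 F1 pools and the 2 embryonic strains, from the transcript tables (filled) and the genomic tables (open), with carriers of the CAST/EiJ mitochondrial genome in red and of C57BL/6J in blue. The filled F1i points lie between 0.742 and 0.980 and the filled F1r points between 0.419 and 0.630, over all SNPs of the genes. At SNPs with no neighbour, which are not drawn, the crosses overlap.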

How the data were processed

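RNA was sequenced for 36 cycles, per the labels' protocols; Novoalign and mm9 are named in the submitters' processing notes, with no version or settings. The deposited tables hold counts of reads with the CAST and the C57BL/6J base at each SNP, for transcript and for genome alignments, with technical replicates summed by the authors. Repeated listings of a transcript position were dropped (2073 in E15, 1056 in POA, 911 in PFC), the deeper one kept. 8 columns of adult parental strains were not used, because the POA and PFC tables gave nearly the same values in them.

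Maternal and mitochondrial shares were compared over pools by exact two-sided permutation tests (Python 3.11.15), adjusted over 7 comparisons, with exact Clopper-Pearson 95% intervals. Reads per gene and allele were fitted over all genes with edgeR 4.0.16 (TMM scaling, quasi-likelihood, genes kept by filterByExpr or, for allele ratios, a mean of at least 20 reads) and Benjamini-Hochberg adjustment at 0.05. Expression fits of adult pools held region, cross and sex, and that of embryo against adult held cross; allele fits held a term per pool, allele, and allele by cross. DESeq2 1.42.0, other scalings and filters, thinned SNPs and left-out pools were alternatives. The scripts were tested on simulated data. SNPs were placed on NCBIM37 (mm9), and nuclear copies sought with blastn 2.17.0.

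The members, gene lists and tests were chosen with earlier results of these data known. Every chrM transcript was named, with the 5 SNPs lowest in maternal share, the 5 with most reads, any under 90% in a pool with at least 20 reads, and the 3 genes of smallest p per direction of each nuclear list. Adult samples of the parental strains and small RNA tables were not analysed here.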

Additional observations from a re-analysis of the deposited data

Results flagged for a closer look

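The difference between the sexes in the parent-of-origin ratio of Atpase6 was the 1 mitochondrial result in which the effect of cross differed between groups by a test of the difference itself, at -0.50 (male minus female, log2 of maternal over paternal reads, edgeR adjusted p = 0.0382). Of the 8 transcripts it alone was called, at rank 315 by p among 11171 genes of which 316 were called. The call was lost with DESeq2, with autosomal and mitochondrial genes alone and without some single pools. AK163440 had a value of similar size, -0.52 (edgeR adjusted p = 0.234). Among 36 groups of pool values checked, 0 had a pool that stood apart by Dixon's criterion, where chance alone would give about 1 in 20.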

How the results depend on the processing

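By replicate number, no paired analysis was possible because the numbers mark technical replicates that were summed before deposit. Pools could be matched on region, sex and cross: sign flips within the 4 matched pairs, where p cannot go below 0.125, gave that p for the cross difference in maternal share (-0.58) and for the region (-21.5) and cross (-3.33) differences in mitochondrial share, each with 4 of 4 pairs in 1 direction. All 8 transcripts stayed lower in POA than in PFC and maternal in every alternative run. Leaving out single pools gave, for the cross difference in maternal share, -0.69 to -0.37 points (exact permutation p 0.0286 to 0.0857, the second without any 1 F1r pool), and for the sexes -0.29 to 0.12. For the mitochondrial share it gave -7.74 to 1.21 between crosses (positive without the POA F1i female or the PFC F1r male pool), -1.87 to 6.83 between sexes (negative without PFC F1r male, POA F1i female or POA F1r female) and -0.42 to 3.85 between embryo and adult. Autosomal reads as denominator turned the last to -0.25. AK140265 between crosses had 0.00165 without scaling and -0.22 to 0.10 with pools left out, and mt-Nd4 between embryo and adult -0.18 to 0.37. The number of transcripts whose parental ratio differed between regions (0) was 2 with the deepest SNP of each gene, 1 with no minimum, and 0 to 3 with pools left out (3 without the POA F1i female or the PFC F1i female pool). The number for the sexes (1) was 0 with DESeq2, 2 with no minimum, 0 with autosomal and mitochondrial genes alone, and 0 to 7 with pools left out (7 without either POA F1i pool). The number of transcripts lower in the embryo (0) was 1 with adult region as a term. The causes of these shifts were not tested. The SNP sets shared by both adult tables, the set without T3629C and C3630T, the thinning of every transcript, the matched pairs, the region term and the other SNP sets for mt-Nd2 and mt-Nd1 were chosen after seeing the data. Depth limits single positions (2 reads at the least). E15 is limited by 1 pool per cross and by unlike X chromosome shares of its pools.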

Other observations

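The balance of mt-Cytb to mt-Nd5, subunits of complexes III and I read from 1 listed transcript, differed between the E15 and adult pools. It also differed between the adult regions and between the 2 E15 pools. Age and tissue cannot be told apart here, since the E15 pools are whole brain. In reads per SNP the ratio was 4.51 and 3.29 in the E15 F1i and F1r pools. In the adult pools it was 1.96 to 2.12 in POA and 2.38 to 2.98 in PFC. The embryonic pools were thus above all 8 adult pools, while the pure strains at E15 had 4.02 (CAST/EiJ) and 2.74 (C57BL/6J), the second within the adult range. The pair was chosen after its values were seen, and no test was made.

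mt-Nd4l, a small complex I subunit with 3 SNPs, had the lowest level of the 13 genes in E15 F1i, at 251 reads per SNP per 1000000 nuclear informative reads against 789 in E15 F1r. In the 4 adult pairs F1i and F1r were closer, from 322 and 450 in POA females to 773 and 1194 in PFC males. Blood markers (2 of 3 listed) summed to 869 and 1214 CPM in the E15 pools and 62.1 to 114 in the adult pools. Microglial markers (3 of 4 listed) summed to 181 to 201 in PFC and 102 to 121 in POA.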
